A study of Homo sapiens with 2 samples.

Results

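The HOXD cluster is a row of 9 homeobox genes, HOXD1, HOXD3, HOXD4, HOXD8, HOXD9, HOXD10, HOXD11, HOXD12 and HOXD13, on chr2:176957449-177055635 (hg19), an interval of 98.2 kb. The members examined here were the CpGs of this interval with at least 1 read in each of 2 whole-genome bisulfite sequencing (WGBS) libraries, where bisulfite turns unmethylated cytosine into a base read as T and leaves methylated cytosine to be read as C. There were 1867 such CpGs, out of 14699127 CpGs read in both libraries on all chromosomes and out of 3330 CG dinucleotides of the interval in the reference. They were divided into gene bodies, promoters (1 kb either side of the transcript start) and the 8 intergenic pieces between neighbouring bodies. Promoters share CpGs with the bodies and pieces they lie in, so their results are not separate observations. Both libraries came from HEK293T cells, a human embryonic kidney line that carries the SV40 large T antigen. The Neg library was labelled as the negative control, which the study describes as cells that were not transduced. The dCas9+3A+HOXA5 library came from cells transduced with lentiviruses for a nuclease-dead Cas9 carrying the SunTag peptide array, for an antibody fragment fused to green fluorescent protein and the de novo DNA methyltransferase DNMT3A, and for a guide RNA against HOXA5, a gene of the HOXA cluster on chromosome 7. No guide was aimed at HOXD. The labels give day 30 for both libraries and attach 1 treatment text to both, so the sample title alone separates them. Transduced cells were sorted for fluorescence, so that sorting, transduction and the editing proteins cannot be told apart as differences between the libraries. Each group was 1 library: tests on reads compared the libraries and not the conditions, and no difference below has a replicate check. Methylation says little about cell identity, and the HEK293T label was not checked against marker genes.

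HOX genes encode transcription factors that give cells their position along the body axis and the limbs. Genes at the anterior (3′) end of a cluster act nearer the head and tend to be switched on earlier, and those at the posterior (5′) end act nearer the tail and in the distal limb. The CpG-dense starts of HOX genes are usually unmethylated and are often held silent by Polycomb proteins, while transcribed gene bodies are often methylated. DNMT3A adds methyl groups to CpGs that had none.

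The following stretches are printed because each stands for 1 of the results below. All were read from GRCh37, which has the coordinates of hg19, on the plus strand and 5′ to 3′, and capitals mark the CpGs with reads in both libraries. The first comes from the 1-kb window with the largest gain, between HOXD12 and HOXD11 (chr2:176970582-176970821, intergenic). In it 4 of 29 reads were methylated in Neg and 11 of 11 in dCas9+3A+HOXA5, over 10 CpGs. The second comes from the first intron of HOXD3 (chr2:177023582-177023761), where 0 of 31 reads were methylated in Neg, which allows up to 9.68% (3 counts of the total), and 27 of 27 in dCas9+3A+HOXA5 over 7 CpGs. The third lies just before the HOXD8 start (chr2:176994242-176994421), where 0 of 83 and 0 of 118 reads were methylated over 23 CpGs, which allow up to 3.61% and 2.54%. The fourth lies before the HOXD10 start (chr2:176981244-176981423), the promoter that differed least in mean level (by summed reads HOXD1 differed less), where 40 of 40 and 90 of 90 reads were methylated over 20 CpGs. The fifth is coding sequence of HOXD3 in the window with the largest loss (chr2:177034116-177034215), with 16 of 17 against 8 of 9 methylated reads over 3 CpGs. Within it the third CpG alone was lower, from 4 of 4 to 0 of 1. The HOXD3 intron and HOXD8 stretches were chosen after their values were seen. Reads are counted at each CpG they cross, so these counts are not separate molecules and the upper limits given for 0 are too low.
HOXD12 to HOXD11, gain: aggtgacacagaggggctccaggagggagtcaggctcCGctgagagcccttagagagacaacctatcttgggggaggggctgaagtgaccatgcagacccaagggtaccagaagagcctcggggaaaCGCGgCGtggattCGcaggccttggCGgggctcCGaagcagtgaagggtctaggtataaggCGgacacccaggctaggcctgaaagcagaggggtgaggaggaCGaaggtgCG
HOXD3 intron, gain: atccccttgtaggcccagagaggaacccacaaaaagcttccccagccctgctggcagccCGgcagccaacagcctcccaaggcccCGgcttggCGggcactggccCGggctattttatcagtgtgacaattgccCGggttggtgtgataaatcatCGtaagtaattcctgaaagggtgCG
HOXD8 start, unmethylated in both: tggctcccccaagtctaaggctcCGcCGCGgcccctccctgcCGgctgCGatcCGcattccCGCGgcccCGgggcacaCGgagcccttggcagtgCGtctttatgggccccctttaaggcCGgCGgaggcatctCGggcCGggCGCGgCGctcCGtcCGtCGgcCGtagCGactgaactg
HOXD10 start, methylated in both: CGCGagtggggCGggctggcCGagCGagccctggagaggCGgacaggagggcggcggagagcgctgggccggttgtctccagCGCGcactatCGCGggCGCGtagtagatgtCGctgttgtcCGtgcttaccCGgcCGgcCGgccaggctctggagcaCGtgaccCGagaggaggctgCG
HOXD3 coding exon: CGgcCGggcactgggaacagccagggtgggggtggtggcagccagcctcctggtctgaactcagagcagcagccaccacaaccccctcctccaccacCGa

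In what follows, the edited library is short for dCas9+3A+HOXA5. The libraries were shallow and of unequal depth. On the main chromosomes a listed CpG had on average 3.80 reads (Neg) and 2.89 reads (edited). In the HOXD interval the shared CpGs had a median of 3 and 2 reads and at most 13 and 17, and only 89 of them had at least 5 reads in both libraries. At the HOXA5 body, which checks the labels, the mean level stood at 3.91% in Neg, and at 59.5% in the edited library.

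Methylation of the HOXD cluster as a whole was somewhat higher in dCas9+3A+HOXA5. The mean level over its CpGs was 60.8% ± 44.8 (SD over CpGs, n = 1867 CpGs) in Neg. In dCas9+3A+HOXA5 it was 70.1% ± 44.5, higher by 9.39 points. Summing reads gave 4353 methylated of 6849 (63.6%) and 3441 of 5031 (68.4%), a smaller difference of 4.84 points. All chromosomes together also rose from 63.7% to 69.5%, by 5.81 points, and chromosome 2 by 5.47 points. The flanking intervals of equal length differed by 6.47 points on the centromeric side and 4.41 points on the telomeric side. When each CpG needed 3 reads in both, the HOXD difference was 3.69 points, beside 4.31 on the centromeric side, 8.72 on the telomeric side and 5.25 over all chromosomes. With 5 reads in both it was 2.07 points, beside 5.64, 12.1 and 4.85 points.

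**Figure D1:**
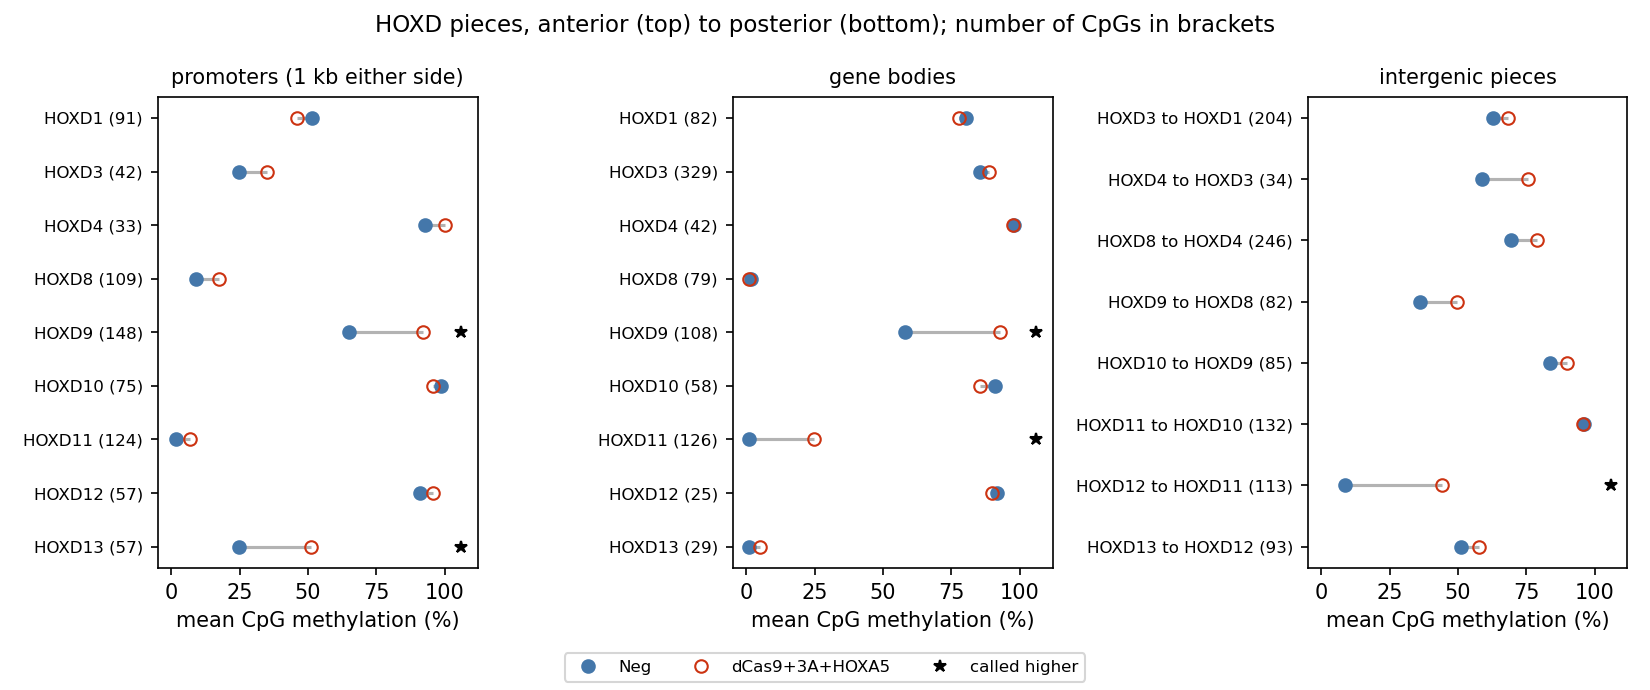
Mean CpG methylation (%, horizontal axis) of the HOXD promoters, gene bodies and intergenic pieces, with genes in anterior to posterior order from top to bottom and the number of CpGs in brackets; filled points are Neg, open points dCas9+3A+HOXA5, 1 library each, and a star marks a piece called higher. Stars stand at the HOXD9 and HOXD13 promoters, the HOXD9 and HOXD11 bodies and the piece from HOXD12 to HOXD11, and the HOXD13 promoter difference lies wholly before the HOXD13 start, outside the interval.

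Among the promoters, those of HOXD9 and HOXD13 had more methylation in dCas9+3A+HOXA5 and the other 7 were not called. A piece was called when the mean levels differed by over 20 points and the adjusted p of a two-sided Fisher's exact test on summed reads, adjusted by Benjamini-Hochberg over all pieces of that kind in the genome, was under 0.01. This called 2 of 9 HOXD promoters higher and 0 lower, where 2.27% of all 53327 promoters tested were called higher and 0.606% lower. At an unadjusted p under 0.05, Fisher's exact test gave 5 HOXD promoters with the higher summed share in the edited library and 1, HOXD8, with the lower, beside 19.1% and 6.71% of all promoters. The median difference over the 9 promoters was 7.42 points, beside 2.43 points over all promoters.

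At the anterior end, HOXD1, which takes part in sensory neuron development, had a promoter level of 51.3% in Neg and 45.9% in dCas9+3A+HOXA5 by the mean over CpGs. By summed reads it was at 38.3% of 264 reads and 39.9% of 233, so that its direction turned with the weighting. The upstream 1 kb was nearly free of methylation in both libraries, at 2.34% and 2.08%. The downstream 1 kb was at 77.9% and 69.6% by the mean, while its summed reads went the other way, from 99 of 178 (55.6%, 48.3 to 62.7) to 91 of 128 (71.1%, 62.7 to 78.2; 95% Wilson intervals). The HOXD3 promoter, of a gene that acts in the upper neck, stood at 24.8% and 35.1% (adjusted p = 0.0507, Fisher's exact test). That difference lay upstream of its start, at 44.4% and 64.1%, while downstream 1 of 69 and 0 of 36 reads were methylated. The promoter of HOXD4, a hindbrain and neck gene, was at 92.6% and 100%. HOXD8, a trunk gene, had a promoter level of 9.11% and 17.3%. Here too the direction depended on how CpGs were weighted, since summed reads gave 34 of 306 for Neg (11.1%, 8.06 to 15.1) and 24 of 438 for the edited library (5.48%, 3.71 to 8.02). Downstream of the HOXD8 start both libraries were near 0, with 2 of 130 and 2 of 259 methylated reads. None of these 4 promoters was called.

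At the HOXD9 promoter, of a gene used in limb and lower trunk patterning, the Neg library had 332 methylated of 488 reads (68.0%, 95% Wilson interval 63.8 to 72.0). The dCas9+3A+HOXA5 library had 224 of 246 (91.1%, 86.8 to 94.0). The mean level rose from 65.1% to 92.1% over 148 CpGs, by 27.1 points (adjusted p = 1.17e-10, Fisher's exact test). Most of this gain lay downstream of the start, where the level was 52.7% in Neg against 92.7% in the edited library, against 81.3% and 91.4% upstream. At the HOXD13 promoter, of the most posterior gene, whose changes cause fused and extra digits, the Neg library had 73 methylated of 266 reads (27.4%, 22.4 to 33.1) and the edited library 94 of 151 (62.3%, 54.3 to 69.6). Its mean level rose from 24.7% to 51.2% over 57 CpGs, by 26.5 points (adjusted p = 8.11e-10, Fisher's exact test). All of that rise was upstream of the start, from 35.2% to 73.0% over 40 CpGs that lie outside the HOXD interval itself. The 17 CpGs downstream had 0 of 106 methylated reads in Neg against 0 of 33 in the edited library. Taken as separate reads, these allow shares of up to 2.83% and 9.09% (3 counts of the total). Those limits are too low, since a read is counted at each CpG it crosses. By the rises of coverage, that 1 kb held at least about 26 separate reads in Neg and 3 in the edited library. Over all CpGs listed in each library, the rises gave at least about 47 separate reads in Neg for the whole HOXD9 promoter, against 11 in the edited library. For HOXD13 they gave at least about 46 and 16. These estimates take in CpGs read in 1 library alone and miss a read that starts where another ends. With 1 CpG kept per 300-bp bin, which lowers repeat counting of a read, neither promoter was called (adjusted p = 0.653 and 0.161, Fisher's exact test). Kept CpGs in neighbouring bins can still lie close together and share reads. Under that setting 0.131% of all promoters were called higher. HOXD9 then had 14 of 24 against 10 of 11 methylated reads and a mean difference of 31.95 points. HOXD13 had 10 of 30 against 15 of 19, with 33.3 points. With at least 3 reads per CpG neither was called. The differences were 15.6 points at HOXD9 (adjusted p = 0.403) and 19.6 at HOXD13 (adjusted p = 0.00119, both Fisher's exact test). HOXD13 thus passed the threshold of adjusted p and fell just short of 20 points.

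The remaining posterior promoters were not called. HOXD10, a gene of the lower spinal cord and hindlimb, was at 98.5% in Neg against 95.6% in the edited library, and its summed share differed by -1.77 points with a 95% interval from -5.26 to 1.45. HOXD11, a gene of forearm and kidney development, was at 1.72% and 6.72% (9 of 438 and 17 of 341 reads). HOXD12, a limb gene, was at 90.9% and 95.6%. Methylated and unmethylated promoters thus alternated along the cluster in both libraries: HOXD4, HOXD10 and HOXD12 were above 90%, and HOXD8 and HOXD11 under 20%.

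Among the gene bodies, those of HOXD9 and HOXD11 were called higher and 0 lower, 2 of 9, where 3.81% of 44426 bodies tested were called higher and 0.545% lower. In HOXD9 the body went from 219 of 363 methylated reads (60.3%, 55.2 to 65.2) to 196 of 217 (90.3%, 85.7 to 93.6), and its mean level from 58.2% to 92.8% (adjusted p = 1.64e-14, Fisher's exact test). In HOXD11 it went from 6 of 410 (1.46%, 0.672 to 3.16) to 60 of 356 (16.9%, 13.3 to 21.1), and its mean level from 1.09% to 24.9% (adjusted p = 5.32e-14, Fisher's exact test). The HOXD11 gain lay toward the 3′ end of the gene, since the 1 kb after its start held 4 of 312 and 7 of 264 methylated reads. With summed reads as the level, the HOXD11 difference of 15.4 points was under the threshold and HOXD9 alone was called. With 1 CpG per 300-bp bin neither body was called (adjusted p = 0.0868 for HOXD9 and 0.128 for HOXD11, Fisher's exact test), where 3.7% of all bodies were called higher. The mean differences were then 36.5 and 29.6 points, on 8 and 9 CpGs. Neither body was called with at least 3 reads per CpG, when the differences were 14.0 and 9.82 points.

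The other 7 bodies were not called. HOXD8 was nearly free of methylation in both libraries, with 3 of 188 reads in the Neg library (1.60%, 0.544 to 4.59) and 3 of 309 in the edited one (0.971%, 0.331 to 2.82), and the HOXD13 body had 1 of 131 and 4 of 65. The HOXD4 body was at 97.7% and 97.6%, HOXD12 at 91.9% and 90.0%, and HOXD10 at 90.8% and 85.4%. With 1 CpG per 300-bp bin the HOXD10 body had 32 of 32 against 23 of 29 methylated reads (adjusted p = 0.0413, Fisher's exact test), which did not pass the threshold. HOXD3, the longest body, was at 85.6% and 88.8% (adjusted p = 0.00174, Fisher's exact test), a difference of 3.22 points. HOXD1 fell from 80.5% to 77.8% by the mean over CpGs, but its summed share was 67.5% in Neg against 81.6% in the edited library (adjusted p = 0.00206, Fisher's exact test), so that no direction can be given for it. The median difference over the 9 bodies was -0.119 points, beside 4.14 points over all bodies.

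Of the 8 intergenic pieces, the one between HOXD12 and HOXD11 carried the largest gain. Here Neg had 26 methylated of 376 reads (6.91%, 4.76 to 9.94) and the edited library 113 of 292 (38.7%, 33.3 to 44.4). The mean level over 113 CpGs went from 8.70% to 44.3% (adjusted p = 4.65e-23, Fisher's exact test). It was the only piece called, 1 of 8, where 3.01% of all 16629 gaps between coding genes were called higher and 0.162% lower. With 1 CpG per 300-bp bin it was still called, at 7 of 48 against 24 of 48 methylated reads (adjusted p = 0.00152, Fisher's exact test). Kept CpGs in neighbouring bins can still share reads. Under that setting the piece from HOXD9 to HOXD8 was called as well, at 18 of 50 against 26 of 34 reads (adjusted p = 0.00137, Fisher's exact test), with 5.16% of all gaps called higher. With all of its CpGs that piece was at 36.2% and 49.5% (adjusted p = 0.542, Fisher's exact test). With at least 3 reads per CpG no piece was called, and HOXD12 to HOXD11 differed by 6.01 points (adjusted p = 0.575, Fisher's exact test), far less than the 35.6 points with all CpGs.

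The other pieces, from anterior to posterior, were mostly methylated in both libraries. HOXD3 to HOXD1 was at 62.8% in Neg and 68.4% in dCas9+3A+HOXA5, HOXD4 to HOXD3 at 58.8% and 75.7%, and HOXD8 to HOXD4, which holds the microRNA gene MIR10B, at 69.5% and 78.8%. HOXD10 to HOXD9 was at 83.5% and 90.0%, HOXD11 to HOXD10 at 96.2% and 95.9%, and HOXD13 to HOXD12 at 51.1% and 57.8%. The median difference over the 8 pieces was 7.98 points, beside 5.54 points over all gaps. Just outside the cluster, the gap from EVX2, the homeobox gene next to HOXD13, to the HOXD13 start was at 64.4% and 84.2% (adjusted p = 2.59e-11, Fisher's exact test), a difference of 19.7 points that fell short of the threshold.

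**Figure D2:**
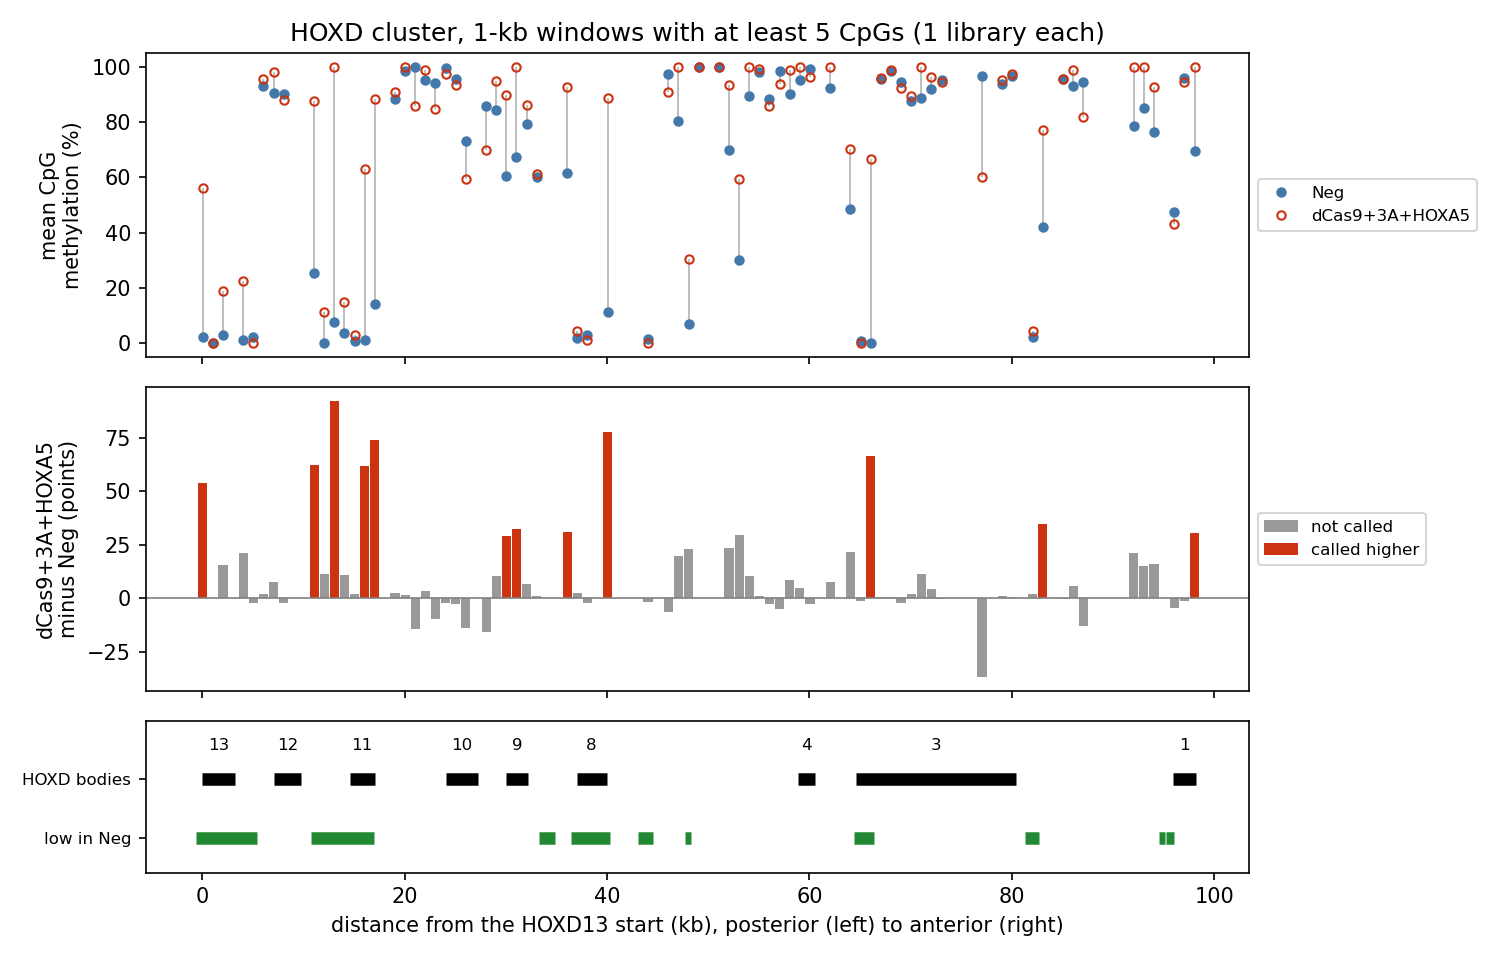
Mean CpG methylation of 1-kb windows with at least 5 CpGs (%, top), their difference in points (middle) and the HOXD gene bodies with the stretches of low methylation in Neg (bottom), by distance from the HOXD13 start in kb; filled points are Neg and open points dCas9+3A+HOXA5, and red bars are the 12 windows called higher of 73 tested. The red bar at 0 kb rests on 19 CpGs before the HOXD13 start, outside the interval, and the other 11 lie between HOXD12 and the end of HOXD1. Windows above 80% in Neg could not rise by over 20 points.

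At a resolution of 1 kb, windows called higher lay from the HOXD12 to HOXD11 piece to HOXD1, and 1 more overlapped the HOXD13 start. Of 73 windows tested, 12 were called higher (16.4%) and 0 lower, against 1.43% and 0.391% of all 1053669 windows tested. As for the other pieces, the shares of all windows were not matched to HOXD for number of CpGs or reads, on which a call depends. The window at the HOXD13 start (chr2:176957001-176958000) held 19 CpGs that all lie before that start, outside the interval. With windows cut to the interval 11 of 72 were called higher (15.3%) and 0 lower, and the HOXD13 body had none. At an unadjusted p under 0.05, Fisher's exact test gave 19 of the 73 windows higher (26%) and 0 lower, beside 14.1% and 4.26% of all windows. Among windows under 20% in Neg, 6 of 19 were called (31.6%), or 5 of 18 (27.8%) when cut to the interval, against 3.51% of all such windows. Among those from 20% to 80% in Neg 6 of 15 were called, against 2.26% of all such windows called higher and 0.558% lower, and among those over 80% 0 of 39. A window over 80% cannot rise by over 20 points, so the last group, like the promoters of HOXD4, HOXD10 and HOXD12, could only have been called lower.

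The largest gain was the window at chr2:176970001-176971000 before the HOXD11 start, which held 8 methylated of 105 reads in the Neg library (7.62%, 3.91 to 14.3) and 25 of 25 in the edited one (100%, 86.7 to 100). By the rises of coverage these 25 counts came from at least 2 separate reads, a lower bound, at 1.09 reads per CpG in the edited library. The next was chr2:176997001-176998000, which spans the 3′ end of HOXD8, with 1 of 14 and 12 of 13 methylated reads (the methylated ones all at the 8 of its 9 CpGs that lie beyond the gene), and the third was chr2:176974001-176975000, at the 3′ end of HOXD11, with 7 of 42 and 32 of 36. Of the windows called, only chr2:177023001-177024000 was still called with 1 CpG per 300-bp bin, at 0 of 24 against 9 of 10 methylated reads (adjusted p = 0.00167, Fisher's exact test), where 0.0227% of all windows were. Most of those 9 lay at the kept CpGs 177023667 (5 of 5) and 177023716 (3 of 3), close enough to share reads. The window lies in the first intron of HOXD3 and holds the second sequence printed above. With all CpGs it had 0 methylated of 63 reads in the Neg library (0%, 0 to 5.75) and 28 of 33 in the edited one (84.8%, 69.1 to 93.3). With at least 3 reads per CpG 1 of 40 windows was called.

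None of the 3 largest losses was called. The mean level fell by 36.7 points at chr2:177034001-177035000, in HOXD3, which rests on 5 CpGs with 20 of 22 and 10 of 12 methylated reads. It fell by 15.7 points at chr2:176985001-176986000 and by 14.3 points at chr2:176978001-176979000, both intergenic, and Fisher's exact test gave adjusted p = 0.795 and 0.675.

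Stretches without methylation in Neg were also divided into outer parts and core, and in summed reads the difference was larger in the outer parts. Such stretches were found from the Neg reads alone, as runs of at least 10 CpGs over at least 500 bp whose running level over 5 CpGs was under 20%, and this division was chosen after the data had been seen. Low levels in Neg are therefore given by the choice and carry no test. There were 10 stretches that lay in or reached into the interval, with 63 of 2045 methylated reads in Neg (3.08%) and 245 of 1633 in dCas9+3A+HOXA5 (15.0%). In the 5 stretches of at least 1500 bp, the outer 500 bp on each side went from 18 of 367 (4.90%) to 114 of 260 (43.8%), and the core from 25 of 1320 (1.89%) to 107 of 1127 (9.49%). The first stretch begins before the HOXD13 start, and its whole left outer part lies outside the interval. Cut to the interval, all stretches went from 58 of 1974 (2.94%) to 221 of 1591 (13.9%), and the outer parts from 13 of 296 (4.39%) to 90 of 218 (41.3%). The 500 bp just outside went from 68.7% to 90.3%. The same choice of stretches over all chromosomes gave 7.61% and 16.3% in the outer parts and 4.55% and 8.96% in the core. Just outside those stretches, the 500 bp were at 48.9% in Neg and 47.3% in dCas9+3A+HOXA5.

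**Figure D3:**
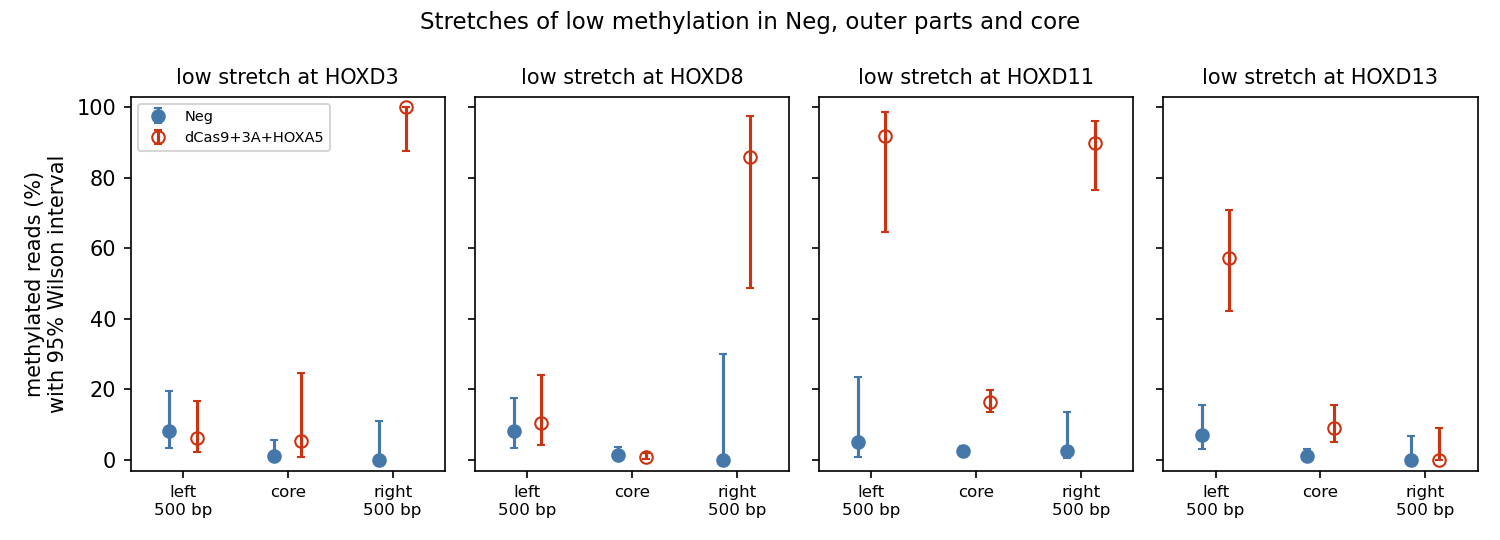
Share of methylated reads (%, with 95% Wilson intervals) in the left outer 500 bp, the core and the right outer 500 bp of the low stretches at HOXD3, HOXD8, HOXD11 and HOXD13; filled points are Neg and open points dCas9+3A+HOXA5, 1 library each. Cores sit under 20% in both libraries, while the right edge at HOXD3 and HOXD8, both edges at HOXD11 and the left edge at HOXD13, which lies before the HOXD13 start and outside the interval, are above 50% in dCas9+3A+HOXA5.

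The long stretches differed in which edge was methylated. The stretch at HOXD11, of 6250 bp, had methylated edges on both sides in dCas9+3A+HOXA5, from 1 of 20 to 11 of 12 reads on the left and from 1 of 38 to 35 of 39 on the right. Its core went from 18 of 713 (2.52%) to 92 of 559 (16.5%) in summed reads, a difference of 13.9 points, and by 23.7 points in the mean over CpGs. That core holds the window with the largest gain and the called window chr2:176973001-176974000, apart from the last bases of the latter. The stretch at HOXD13, of 6070 bp, had more methylated reads on its left edge, outside the interval, from 5 of 71 to 24 of 42, and had 0 of 54 and 0 of 38 on its right edge. At HOXD3 the right edge went from 0 of 31 to 27 of 27 and the left edge from 4 of 48 to 3 of 48. The core of the HOXD8 stretch was nearly free of methylated reads in both libraries, at 3 of 238 (1.26%) and 3 of 429 (0.699%). Its right edge had 0 of 9 and 6 of 7 methylated reads, and its left edge 5 of 62 and 4 of 38. The fifth long stretch, between HOXD9 and HOXD8, had no CpG read in both libraries in its core and 9 dCas9+3A+HOXA5 reads in all. With an outer part of 250 bp, 8 stretches were long enough in place of 5, and over these the outer difference was 18.7 points and the core difference 10.9 points. The width and the set of stretches both changed, so these values cannot be set against 38.9 and 7.60 points as an effect of the width alone.

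Most CpGs of the low and high classes stayed in their class, while most intermediate CpGs did not, and those that left the low class mostly went to the high class. Of 610 CpGs at or under 20% in Neg, 454 were still there in dCas9+3A+HOXA5, 27 lay between 20% and 80% and 129 were at 80% or above. Of 248 intermediate CpGs 20 were still intermediate, 196 were at 80% or above and 32 at or under 20%, and of 1009 CpGs at 80% or above 940 were still there. Many of these CpGs had 1 or 2 reads, which can only give levels at or near 0%, 50% or 100%, and a CpG with 1 read cannot be intermediate. The same moves were not counted over all CpGs of the genome, so none can be called particular to HOXD. Of the 22 low CpGs that had 5 reads or more in both, 18 stayed low, 3 were intermediate and 1 was at 80% or above. At that depth 58 of 63 high CpGs stayed high. Only 4 intermediate CpGs had that depth, of which 3 were at 80% or above and 1 was still intermediate.

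The list of companion genes held the neighbours EVX2, MTX2 and LNPK, the noncoding genes of the locus, and the PBX, MEIS and PKNOX families, whose proteins bind DNA together with HOX proteins. Of 16 promoters 15 were tested and 0 were called in either direction, beside the 2.27% higher and 0.606% lower of all promoters. At an unadjusted p under 0.05 Fisher's exact test gave 5 higher and 2 lower by summed reads (33.3% and 13.3%), beside 19.1% and 6.71% of all promoters. The HAGLR start lies beside the HOXD1 start on the opposite strand, and its promoter held the same 91 CpGs as that of HOXD1. The promoter of HAGLROS, a noncoding gene between HOXD3 and HOXD1, was at 94.4% in Neg and 95.6% in dCas9+3A+HOXA5. HOXD-AS2, antisense to HOXD8 and HOXD9, was at 11.8% and 12.3%, and MIR10B at 95.5% and 95.8%.

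**Figure D4:**
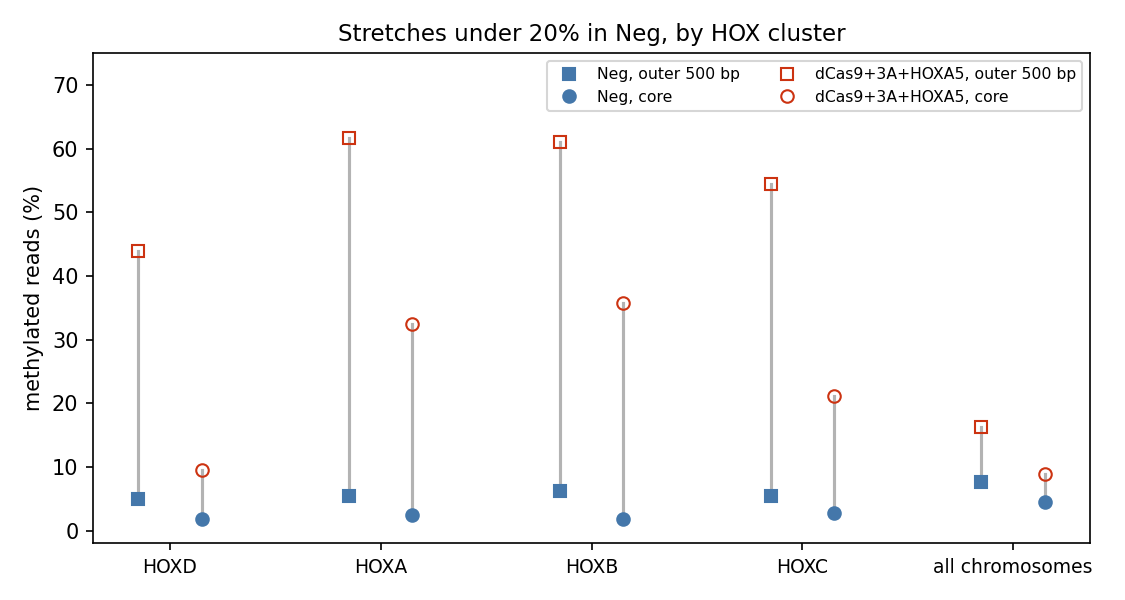
Share of methylated reads (%) in the outer 500 bp (squares) and core (circles) of stretches under 20% in Neg, for the 4 HOX clusters and for all chromosomes; filled symbols are Neg and open symbols dCas9+3A+HOXA5, 1 library each. In dCas9+3A+HOXA5 the HOXD core lies at 9.49%, near the 8.96% of all chromosomes, and the HOXD outer part at 43.8%, against 16.3% for all chromosomes.

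Set beside the other HOX clusters, HOXD had the smallest difference in mean level. It was 27.4 points in HOXA, which holds the target of the guide, 20.3 in HOXB and 23.0 in HOXC, against 9.39 in HOXD. In low stretches of at least 1500 bp, the core stood at 9.49% of reads in dCas9+3A+HOXA5 in HOXD, 32.5% in HOXA, 35.7% in HOXB and 21.1% in HOXC, and at 8.96% over all chromosomes. In Neg these cores were at 1.89%, 2.41%, 1.86% and 2.72%, and at 4.55% over all chromosomes. Of the 107 methylated reads in the HOXD cores in dCas9+3A+HOXA5, 92 lay in the stretch at HOXD11. Windows called higher made up 16.4% of those tested in HOXD, 42.6% in HOXA, 22.4% in HOXB and 34.3% in HOXC. In Neg the mean level was 60.8% in HOXD against 28.0%, 51.0% and 41.5% in HOXA, HOXB and HOXC. Windows under 20% in Neg numbered 19 of 73 in HOXD, 52 of 94 in HOXA, 42 of 165 in HOXB and 39 of 102 in HOXC, and of these low windows 31.6%, 59.6%, 45.2% and 41.0% were called higher. Windows and stretches at the ends of each cluster were kept whole here. The difference between clusters was not tested, as each has 1 library per group.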

How the data were processed

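WGBS was made from 2 HEK293T libraries. Per the methods, the authors trimmed reads and aligned them to hg19 with BSMAP (version 2.90 in the submitters' processing notes) and called each CpG with its methylation ratio module. In the deposited files both strands of a CpG are combined. The sources used here do not give how duplicates were handled. The deposited counts are reads with C and with C or T per CpG and, for the opposite strand, reads with G and with G or A. A deposited estimated count corrects C or T for variants, and the deposited fraction is C over that estimate, capped at 1. The study states a minimum of 5 reads, but CpGs with fewer are listed. There were 23884726 CpGs listed for Neg and 16170108 for dCas9+3A+HOXA5.

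Levels were means of the fraction over CpGs with at least 1 read in both libraries. Features came from GENCODE release 44 mapped to GRCh37, with MANE Select transcripts first, and needed at least 5 CpGs. Summed C and non-C counts were compared by Fisher's exact test (two-sided, scipy 1.17.1) with Benjamini-Hochberg adjustment over all features of a kind, and a call needed over 20 points and an adjusted p under 0.01. The code was tested on simulated data. Reads crossing several CpGs are counted at each, so p-values are too small. For the same reason Wilson intervals (95%) are too narrow, and they cover counting error only. Keeping 1 CpG per 300-bp bin (spaced CpGs), the one with most reads in its shallower library, was an alternative chosen after seeing the data. Spaced CpGs can lie less than 300 bp apart. Other alternatives were coverage minimums of 3 and 5, summed reads, counts without the variant correction, CpGs without variant signs, a limit of 20 reads, other thresholds and widths and, added after seeing the data, windows and stretches cut to the interval. All 9 HOXD genes are named, with called or locus companions, and the 3 largest window gains and losses. Members and lists were chosen with earlier results of these data known.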

Additional observations from a re-analysis of the deposited data

How the results depend on the processing

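No paired analysis was possible because Neg and dCas9+3A+HOXA5 had 1 library each, and neither could be left out. Of the comparisons that answer the design, 100 values under alternatives stayed close to those reported and 34 moved. With at least 3 reads the cluster difference was 3.69 points, and 0 promoters of 8, 0 bodies of 8, 0 intergenic pieces of 8 and 1 window of 40 were called. With at least 5 reads it was 2.07 points, and 0 of 2 promoters, 0 of 3 bodies, 0 of 4 pieces and 0 of 8 windows were called, since few features kept 5 CpGs. Summed reads gave 4.84 points and 1 body called, and thresholds of 10 points and an adjusted p of 0.05 gave 2 pieces. Promoters of 500 bp either side differed by 25.4 points at HOXD9 and 51.3 at HOXD13. With spaced CpGs, 0 promoters, 0 bodies, 2 pieces and 1 window were called.

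The difference of the outer parts of low stretches was 45.5 points with at least 5 reads, 57.6 with spaced CpGs, 18.7 with outer parts of 250 bp, which took in 8 stretches in place of 5, and 27.1 for stretches under 10% in Neg. The core difference was 2.27 points with at least 3 reads, and 13.3, 10.9 and 9.65 under the last 3 of these settings. HOXA, HOXB and HOXC differed by 25.1, 18.3 and 20.2 points with at least 3 reads and by 30.6, 14.3 and 16.2 with at least 5. With spaced CpGs HOXA differed by 31.6 and HOXB by 18.9 points, and with summed reads HOXA by 26.0.

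Small differences changed sign. With at least 3 reads these were the HOXD8 promoter (-0.359), the bodies of HOXD1 (10.4) and HOXD4 (2) and the piece from HOXD8 to HOXD4 (-1.66). With at least 5 reads they were the bodies of HOXD1 (29.3), HOXD3 (-3.32) and HOXD4 (2.86). With summed reads they were the promoters of HOXD1 (1.66) and HOXD8 (-5.63), the bodies of HOXD1 (14.0), HOXD4 (0.137) and HOXD12 (0.362) and the piece from HOXD11 to HOXD10 (0.603). Spaced CpGs turned the HOXD1 promoter (5.72) and the bodies of HOXD1 (7.66) and HOXD4 (5). The whole gene record turned the HOXD10 body (10.9), as that record is longer. The cause of the other changes was not tested.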

Other observations

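CpGs read in 1 library alone entered no comparison of levels. Those read in Neg alone helped to set the bounds of the low stretches, and all of them entered the estimates of separate reads. In the HOXD interval 1122 CpGs were read in Neg only, with 1969 of 3490 methylated reads (56.4%, 95% Wilson interval 54.8 to 58.1), and 151 in dCas9+3A+HOXA5 only, with 137 of 317 (43.2%, 37.9 to 48.7). The bodies of the noncoding genes share CpGs with the HOXD3 to HOXD1 piece and with the HOXD8 and HOXD9 genes, so they are not separate observations, and none was called. HAGLR was at 69.3% in Neg and 75.4% in dCas9+3A+HOXA5 (adjusted p = 2.04e-06, Fisher's exact test), with 390 of 559 and 415 of 498 methylated reads. HAGLROS was at 94.8% and 97.0% (adjusted p = 0.037, Fisher's exact test). HOXD-AS2 was at 42.9% and 60.2%, although its summed reads gave 46.6% and 44.3% (adjusted p = 0.462, Fisher's exact test).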
